A study of Mus musculus with 8 samples.

Results

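Internal exon initiation sites are replication initiation sites (ISs) that lie inside protein-coding genes and touch an exon, away from the start and the end of the gene. An IS was taken when it lay on an autosome other than 10, 15 and 16, overlapped an exon of a protein-coding gene by 1 bp or more, and lay more than 1 kb from every protein-coding transcription start site (TSS) and more than 1 kb from every protein-coding gene 3′ end, in the GENCODE annotation of mm9. The rule found 1164 ISs of 39116 in the table of WT and Rif1KO cells (31414 on the 16 autosomes used), and 3885 of 129937 in the table of Rif1KO_shLacZ and Rif1KO_shMcm6 cells (108860 on those autosomes). After overlapping ISs of both tables were merged, 4151 places remained. The rule selects by position and annotation and has no threshold on read density, fold change or base composition. An overlap of 1 bp is met more easily by a wide IS, so the rule is not neutral to width. It was written with earlier results of these data known, and the chromosomes it leaves out had shifted fold changes in Rif1KO against WT.

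Short nascent strand sequencing (SNS-seq) sequences the short, RNA-primed strands made at the start of replication, so that read density at an IS follows how often replication starts there in the population. All 8 libraries came from CH12, a mouse B cell lymphoma line, under stimulation with IL4, CD40 and TGF beta, with 2 libraries each for WT cells, cells that lack Rif1 (Rif1KO), and Rif1KO cells given a lentiviral hairpin, with LacZ as the target in Rif1KO_shLacZ and Mcm6 as the target in Rif1KO_shMcm6. Both hairpin groups thus share the Rif1 knockout, the control hairpin has no target in mouse, and whether the knockout cells for this assay were 1 clone is not given in the sources used here. The deposited tables hold 1 pooled value per group, so no difference below has a replicate check, and the standard error of a single IS is that of read counting. DNA reads carry no expression level, so neither the B cell identity nor the loss of Rif1 and Mcm6 message could be checked against marker genes.

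Replication starts where MCM helicases were loaded on DNA and are then switched on. In mammals ISs are frequent near active promoters and CpG islands and often hold runs of G that can fold into a G-quadruplex. RIF1 is a chromatin protein that steers when domains replicate, and MCM6 is a subunit of the MCM helicase. Exons are short, rich in GC and conserved, while introns are long and richer in AT, so an IS that touches an exon mostly sits at the border of both kinds of sequence.

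The sequences of 6 named ISs show what such a border looks like. Each window lies inside its IS, was read from mm9 in the direction of the gene, 5′ to 3′, and has the exon bases in capitals and the intron in lower case. The first pair had the lowest fold changes in Rif1KO cells, Ntn1 was among the lowest under the Mcm6 hairpin, and Ccdc158, Irx4 and Cpe were among the highest under it. No window holds UTR sequence. The Fam129c exon is the last of a retained-intron transcript, with 163 coding bases of 180. Its capitals therefore end where that transcript ends.
Fam129c exon 3, plus strand, chr8:74126633-74126892: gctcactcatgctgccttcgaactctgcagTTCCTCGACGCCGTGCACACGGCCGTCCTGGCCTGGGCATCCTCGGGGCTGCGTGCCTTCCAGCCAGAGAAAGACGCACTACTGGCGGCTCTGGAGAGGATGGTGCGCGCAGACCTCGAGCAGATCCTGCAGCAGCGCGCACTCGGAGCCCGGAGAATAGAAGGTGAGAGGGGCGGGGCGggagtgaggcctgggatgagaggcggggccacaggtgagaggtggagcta
Dock6 exon 28, minus strand, chr9:21625861-21626120: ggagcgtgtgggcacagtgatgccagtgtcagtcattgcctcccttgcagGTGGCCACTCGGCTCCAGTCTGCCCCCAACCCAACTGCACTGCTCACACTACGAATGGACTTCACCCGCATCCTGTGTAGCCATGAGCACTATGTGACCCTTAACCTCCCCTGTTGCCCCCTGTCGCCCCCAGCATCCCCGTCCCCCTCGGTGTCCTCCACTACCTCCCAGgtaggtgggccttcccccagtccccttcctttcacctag
Ntn1 exon 3, minus strand, chr11:68090904-68091137: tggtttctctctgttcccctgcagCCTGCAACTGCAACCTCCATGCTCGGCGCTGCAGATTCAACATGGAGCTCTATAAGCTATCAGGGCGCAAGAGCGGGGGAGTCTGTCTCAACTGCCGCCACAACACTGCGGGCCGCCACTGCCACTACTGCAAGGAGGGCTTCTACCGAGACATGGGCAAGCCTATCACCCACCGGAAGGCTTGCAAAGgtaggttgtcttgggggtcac
Ccdc158 exon 12, minus strand, chr5:93078122-93078207: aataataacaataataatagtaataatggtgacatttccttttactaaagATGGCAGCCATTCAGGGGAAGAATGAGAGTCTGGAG
Irx4 exon 4, plus strand, chr13:73403994-73404158: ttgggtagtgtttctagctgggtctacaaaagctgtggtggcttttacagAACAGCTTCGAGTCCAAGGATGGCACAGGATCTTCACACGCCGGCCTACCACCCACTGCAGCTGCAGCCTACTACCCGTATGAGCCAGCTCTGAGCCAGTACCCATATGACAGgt
Cpe exon 7, minus strand, chr8:67076207-67076406: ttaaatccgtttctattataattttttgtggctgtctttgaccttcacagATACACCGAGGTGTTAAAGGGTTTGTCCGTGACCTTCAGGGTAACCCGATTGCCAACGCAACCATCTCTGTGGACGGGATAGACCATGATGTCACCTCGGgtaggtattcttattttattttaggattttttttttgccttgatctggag
The GC content of these windows was 66.2% for Fam129c, 61.9% for Dock6, 58.6% for Ntn1, 53.9% for Irx4, 41.5% for Cpe and 33.7% for Ccdc158. These are windows of chosen ISs of both tables, and no relation of GC to fold change is read from them.

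The members spread over many genes. In the table of WT and Rif1KO they lay in 1013 genes, 885 of which held a single IS, and in the hairpin table in 2841 genes, 2099 of which held 1. Coding sequence was touched by 993 (85.3%) and 3360 (86.5%) of them, whereas 95 and 279 touched a UTR but no coding sequence. The exon a member overlapped most was neither the first nor the last of its transcript in 859 (73.8%) and 2940 (75.7%), and its median length was 168 and 161 bp. ISs were wider than that, with a median of 494 and 663 bp, so the typical IS was mostly intron: the median share of exon bases was 23.4% (quartiles 13.3% and 48.6%) and 20.5% (quartiles 11.2% and 39.4%). Only 157 (13.5%) and 380 (9.78%) members were wholly exonic, and 376 (32.3%) and 1228 (31.6%) had their centre in an exon.

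The distance limits of 1 kb cut through a continuous range. In the table of WT and Rif1KO the member nearest to a TSS lay 1022 bp away and had 6.07 log2 RPM in WT and 5.98 in Rif1KO, and the exonic IS just outside the limit, at 990 bp, had 5.56 and 5.43. At the 3′ end limit the nearest member, 1008 bp away, had 3.90 and 3.86, and the exonic IS just outside, at 996 bp, had 4.6 and 4.53. For the hairpin table, the nearest member lay 1008 bp from a TSS, with 4.36 in Rif1KO_shLacZ and 4.33 in Rif1KO_shMcm6, and the exonic IS just outside, at 998 bp, had 2.13 and 2.45. At its 3′ end limit the member at 1001 bp had 4.18 and 4.28, and the exonic IS at 994 bp had 3.01 and 2.91. The 32 and 96 members with 1 to 10 exon bases had median fold changes of -0.026 and -0.15 log2, beside -0.15 and -0.055 for the 35 and 132 intronic ISs that missed an exon by 1 to 10 bases.

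ISs were centred in exons less often than the amount of exon sequence would give. On the 16 autosomes and beyond 1 kb from TSSs and 3′ ends, exons made up 5.26% of gene sequence. In the table of WT and Rif1KO, 412 ISs were centred in 40.6 Mb of such exon sequence, or 10.1 per Mb (exact 95% Poisson interval 9.19 to 11.2), and 10790 in 731 Mb of intron, or 14.8 per Mb (14.5 to 15). The hairpin table gave 33.8 per Mb (32.0 to 35.6) in exons, from 1372 ISs, and 46.9 per Mb (46.4 to 47.4) in introns, from 34299. The ratio of exon to intron was 0.687 and 0.720. These intervals treat ISs as independent, which neighbouring ISs are not.

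The gap was larger among windows of like GC content. The genome was tiled in 500-bp windows, and each was assigned to exon or intron by its centre. At 60% GC or more, 26.4 ISs of the WT and Rif1KO table were centred per 1000 exon windows and 67.4 per 1000 intron windows. From 50% to 55% GC the figures were 6.60 and 16.3, and under 40% GC they were 1.58 and 2.92. The same classes of the hairpin table gave 57.8 and 111 (60% or more), 19.0 and 40.8 (50% to 55%), and 7.06 and 14.7 (under 40%). Frequency rose with GC in both kinds of sequence, and introns had the higher value in all 6 GC classes of both tables. Only uniquely aligned reads were used, and their coverage of exons and introns was not compared, so the part of alignment in this gap was not tested.

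In the WT and Rif1KO table exon bases were also scarcer around the centre of ISs than beside it. Over all ISs centred in the inner parts of genes, the share of exon bases in the WT and Rif1KO table was between 3.62% and 4.37% within 150 bp of the centre and between 4.46% and 5.19% from 400 to 2000 bp away, ranges that do not overlap. The hairpin table gave ranges of 3.60% to 3.85% and 3.79% to 4.35%, which overlap at their edges. Its value at the centre itself, 3.85%, was the highest within 150 bp.

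**Figure D1:**
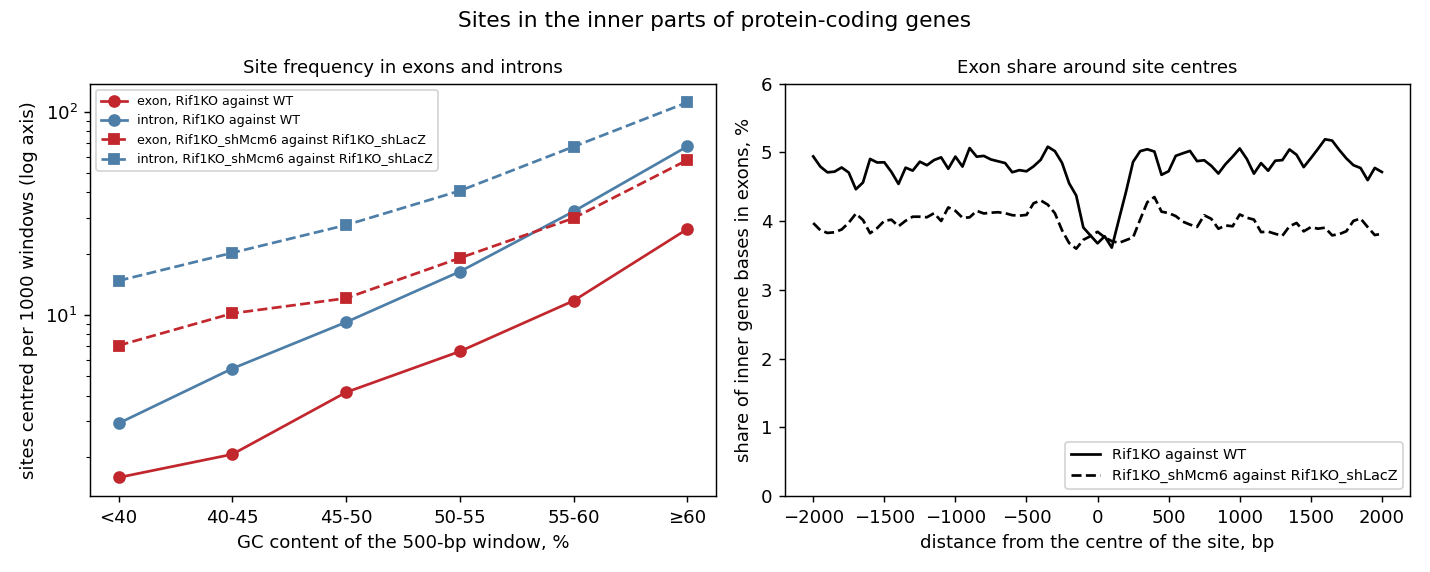
Left, ISs centred per 1000 500-bp windows (log axis) against the GC content of the window, for exon windows (red) and intron windows (blue) and for both tables (solid line with circles, Rif1KO against WT; dashed line with squares, Rif1KO_shMcm6 against Rif1KO_shLacZ). Right, share of inner gene bases that are exonic against distance from the IS centre in bp. Introns lie above exons in all 6 GC classes, and the solid line on the right drops to 3.68% at the centre from flanking values of 4.46% to 5.19%.

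Runs of G had like totals in members and intronic ISs, and in the hairpin table they were scarcer in members at like GC content. The motif searched was 4 runs of 3 or more G with gaps of 1 to 7 bases of any kind, on either strand (on the other strand it reads as runs of C), in the central 500 bp. Matches may overlap and a window counts once. It was present at 74.5% of members and 74.6% of intronic ISs of the WT and Rif1KO table, and at 48.8% and 50.6% of those of the hairpin table. Within classes of GC content, members of the hairpin table held it less often than introns in 5 of 6, for example at 34.5% against 50.4% from 40% to 45% GC, and were richer in it at 60% or more, with 68.9% against 64.3%. In the WT and Rif1KO table the classes went both ways, with members less often in 3 of 6, such as 75.5% against 78.6% from 50% to 55% GC and 77.5% against 74.4% from 55% to 60%. Of all 500-bp windows in the inner parts of genes, 8.03% held it (8.50% of exon windows and 8.0% of intron windows). Where the genes at an IS lay on 1 strand, the motif stood on the template strand alone at 40.7% and on the gene strand alone at 31.8% of 1160 members, and at 43.2% and 30.4% of 9766 intronic ISs. The shares in the hairpin table were 26.5% and 20.2% of 3879 members, so G runs were more often on the template strand in both tables.

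The match nearest to the centre of each of 6 named ISs is printed to show where it lies relative to the exon, 5′ to 3′ on the G-rich strand, with the motif in capitals and 12 flanking bases in lower case.
Gpatch8, chr11:102368225-102368272, plus strand: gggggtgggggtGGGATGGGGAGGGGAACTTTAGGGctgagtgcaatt
Gltscr1, chr7:16564944-16564994, plus strand: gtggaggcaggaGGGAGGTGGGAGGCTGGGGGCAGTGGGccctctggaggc
Rere, chr4:149989470-149989511, minus strand: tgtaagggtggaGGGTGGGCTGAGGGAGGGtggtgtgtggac
Slc22a7, chr17:46571091-46571138, minus strand: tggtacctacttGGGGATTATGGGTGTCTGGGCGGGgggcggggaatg
Irx4, chr13:73403564-73403615, minus strand: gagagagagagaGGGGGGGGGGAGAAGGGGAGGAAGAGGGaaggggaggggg
Kdm6b, chr11:69219522-69219573, plus strand: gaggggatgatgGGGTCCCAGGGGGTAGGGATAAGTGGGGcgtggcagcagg
The motifs of Gltscr1, Rere and Kdm6b lie wholly in exons (27, 18 and 28 bases), and those of Gpatch8, Slc22a7 and Irx4 lie wholly in introns. The motif of Slc22a7 was on the gene strand and the other 5 were on the template strand. The match is a description of letters, and whether the DNA folds there was not measured.

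Members were richer in GC than intronic ISs, and denser as a whole. Their median GC content was 53.8% in the WT and Rif1KO table and 50.9% in the hairpin table, beside 47.6% and 45.3% for intronic ISs. CpG was less depleted, with a median ratio of observed to expected CpG of 0.248 against 0.158, and 0.236 against 0.153. Read density in WT ran from 3.43 to 8.73 log2 RPM, with a median of 4.73, and in Rif1KO from 3.35 to 8.57, with a median of 4.66. Intronic ISs had medians of 4.45 and 4.44. In Rif1KO_shLacZ the members ran from 0.81 to 6.37 with a median of 3.03, and in Rif1KO_shMcm6 from 1.14 to 6.35 with a median of 2.98, beside 2.75 in both for introns. Over all members the medians were thus above those of intronic ISs in all 4 groups, with wide overlap. The order turned for wholly exonic members of the hairpin table, with 2.71 in Rif1KO_shLacZ and 2.72 in Rif1KO_shMcm6, and the gap to introns in Rif1KO_shLacZ was 0.040 log2 among members at least 50% exonic. It also turned at 60% GC or more, where members had 5.20 in WT and 3.19 in Rif1KO_shLacZ and introns 5.36 and 3.48. The tables were scaled separately, so levels may be compared only within one.

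Density was also set beside width and compared within genes. Members were wider than intronic ISs, with medians of 494 and 443 bp in the WT and Rif1KO table and 663 and 594 bp in the hairpin table. Wholly exonic members of the hairpin table, where the order of density turned, had 579 bp. Reads of an IS add up over its width, and the rule favours wide ISs. The part of width in the gap was not tested. Per kb of IS the medians were 54.4 RPM in WT for members and 49.9 for intronic ISs, and 12.4 and 11.7 in Rif1KO_shLacZ. In the 574 genes of the WT and Rif1KO table that held both kinds, the median over genes of exon minus intron density was 0.15 log2 (95% interval 0.088 to 0.20), and in the 2027 such genes of the hairpin table it was 0.23 (0.18 to 0.27). GC content was also higher at the exon IS of a gene than at its intronic ISs, by a median of 2.2 and 1.4 percentage points. Peaks had been called in both conditions at 66.0% of members and 54.6% of intronic ISs in the WT and Rif1KO table, and at 71.1% and 66.1% in the hairpin table. Members drew 3.73% of the reads in ISs in WT and 3.54% in Rif1KO, and 3.62% in Rif1KO_shLacZ and 3.43% in Rif1KO_shMcm6.

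**Figure D2:**
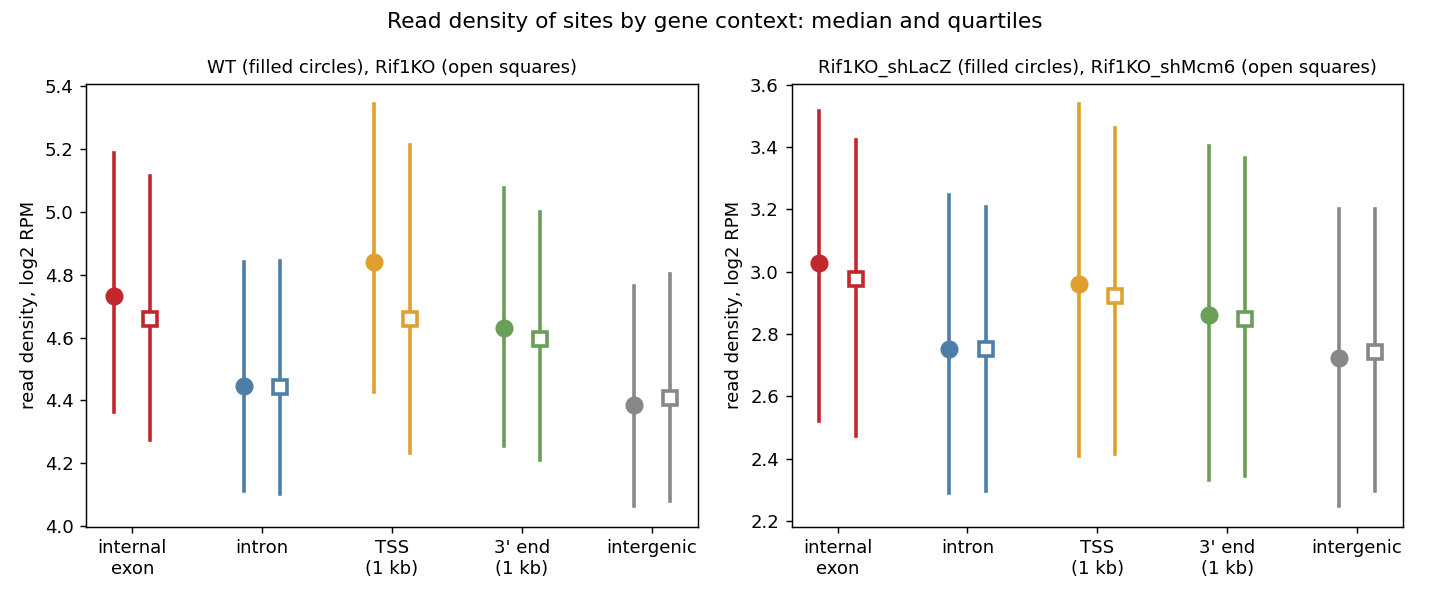
Median (symbol) and quartiles (line) of read density in log2 RPM for ISs of each gene context, in the control group (filled circles) and the treated group (open squares) of each table. The vertical axis does not start at 0 and differs between panels, since each table was scaled on its own. Internal exon ISs have a WT median of 4.73 against 4.45 for introns, and a Rif1KO_shLacZ median of 3.03 against 2.75.

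Loss of RIF1 was compared at the members first. Fold changes are the treated minus the control log2 RPM, and an IS counts as higher or lower when it passed 1.5-fold. Of 1164 members, 26 (2.23%, 95% Wilson interval 1.53% to 3.25%) were lower in Rif1KO and 4 (0.344%, 0.134% to 0.880%) were higher. Over all ISs of the 16 autosomes 1.35% were lower and 0.945% were higher, so the members leaned to the lower side. Of the 26, 23 had a peak called in WT alone, and the 4 had one called in Rif1KO alone. Among the 768 members called in both conditions, 0.391% were lower and 0% higher. With autosomes 10, 15 and 16 kept, 5.11% were lower and 0.840% higher, and the share over all ISs was not computed for that setting. On chromosome 10, 37.4% of the exonic ISs were lower, beside 22.2% of all its ISs. The median of the 1164 members was -0.070 log2 (95% interval -0.080 to -0.054), beside -0.001 for intronic ISs (-0.005 to 0.005), -0.13 for ISs within 1 kb of a TSS and 0.037 for intergenic ISs. Of the members, 64.3% were below 0. The median counting error of a single IS was 0.21, so the change of most single members was not detectable at this depth. The 4 that were higher were Ctcf exon 3, in the gene of the insulator protein (4.16 to 4.99 log2 RPM), Ccdc37 exon 3 (3.72 to 4.33), A430107O13Rik exon 12 (3.90 to 4.51) and Dicer1 exon 27, in the gene of the microRNA-processing enzyme (3.90 to 4.50). The Ctcf exon is from a processed transcript, with 0 coding bases in the IS, and the Ccdc37 exon from a retained-intron transcript. In this order they had 60, 44, 50 and 50 reads in WT and counting errors of 0.23, 0.27, 0.26 and 0.26 log2.

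Under the Mcm6 hairpin the picture differed in the tails. Of 3885 members, 91 (2.34%, 1.91% to 2.87%) were higher in Rif1KO_shMcm6 and 94 (2.42%, 1.98% to 2.95%) were lower, whereas over all ISs of these autosomes 4.82% were higher and 1.5% were lower. Intronic ISs had 4.28% higher and 1.54% lower, and ISs near a TSS 4.79% and 3.98%. The median of the members was -0.093 log2 (-0.10 to -0.081), lower than in introns (-0.029, -0.032 to -0.025) and than near a TSS (-0.042, -0.054 to -0.031). Of the members, 63.8% were below 0, and the median counting error was 0.15. Of the 91 higher, 69 had a peak called in Rif1KO_shMcm6 alone, and of the 94 lower, 53 had one called in Rif1KO_shLacZ alone. Among the 2762 members called in both groups, 0.760% were higher and 1.30% lower. Which of the higher and lower shares was the larger depended on the processing, with more members higher than lower in 6 of 11 alternatives (1.92% against 1.62% without the sparsest ISs). In the WT and Rif1KO table the members thus stood between introns and promoters, and in the hairpin table below both.

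**Figure D3:**
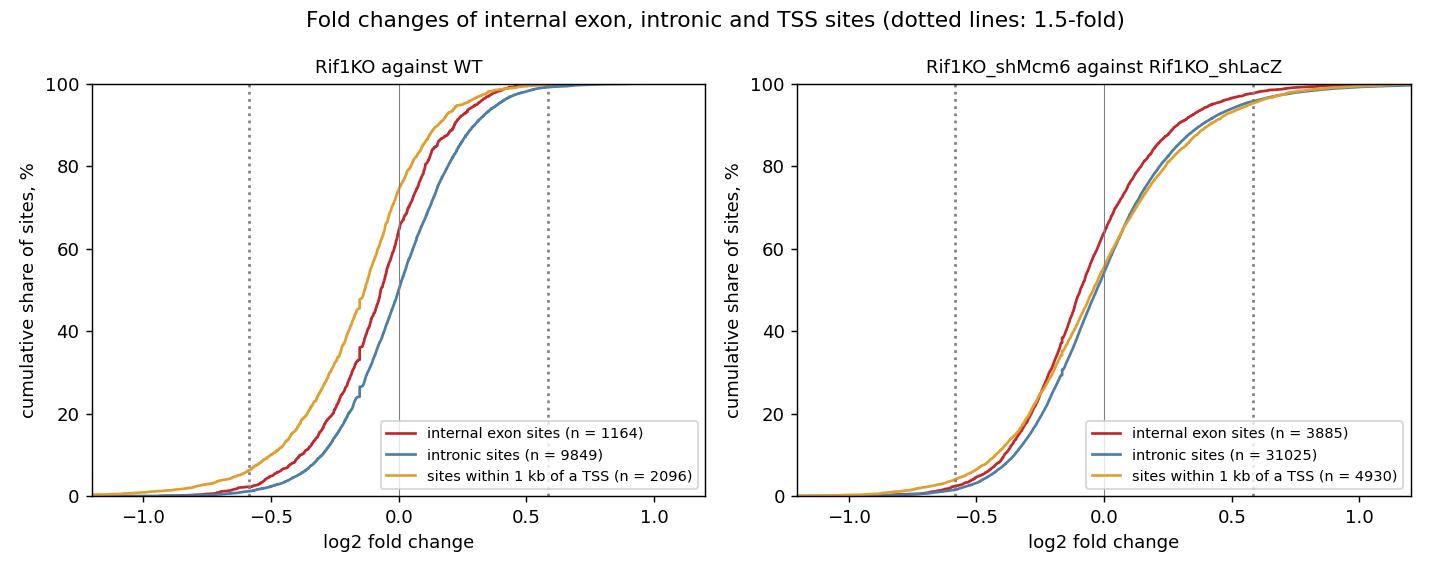
Cumulative share of ISs (vertical axis, %) against log2 fold change (horizontal axis) for internal exon ISs (red), intronic ISs (blue) and ISs within 1 kb of a TSS (orange), with dotted lines at 1.5-fold. On the left the red curve lies between the others at 0, where 64.3% of internal exon ISs are below 0, and on the right it lies above both, at 63.8%.

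GC content moved with the fold change. In the WT and Rif1KO table the median of members went from 0.075 under 40% GC to -0.074 at 50% to 55% and -0.14 at 60% or more, and that of intronic ISs from 0.11 to -0.044 and -0.089. Members had the lower median in 6 of 6 GC classes, but their 95% intervals overlapped those of introns in all 6. Among ISs of 60% GC or more, 10 of 164 members (6.10%, 3.35% to 10.9%) were lower in Rif1KO, beside 4 of 234 intronic ISs (1.71%, 0.667% to 4.31%) and 102 of 910 ISs near a TSS (11.2%, 9.32% to 13.4%). Members of the hairpin table had the lower median in 5 of 6 classes, with intervals apart in 4. Under 40% GC the median was -0.039 (-0.061 to -0.016) for members and 0.029 (0.022 to 0.035) for introns, and at 60% or more it was -0.075 and -0.092.

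**Figure D4:**
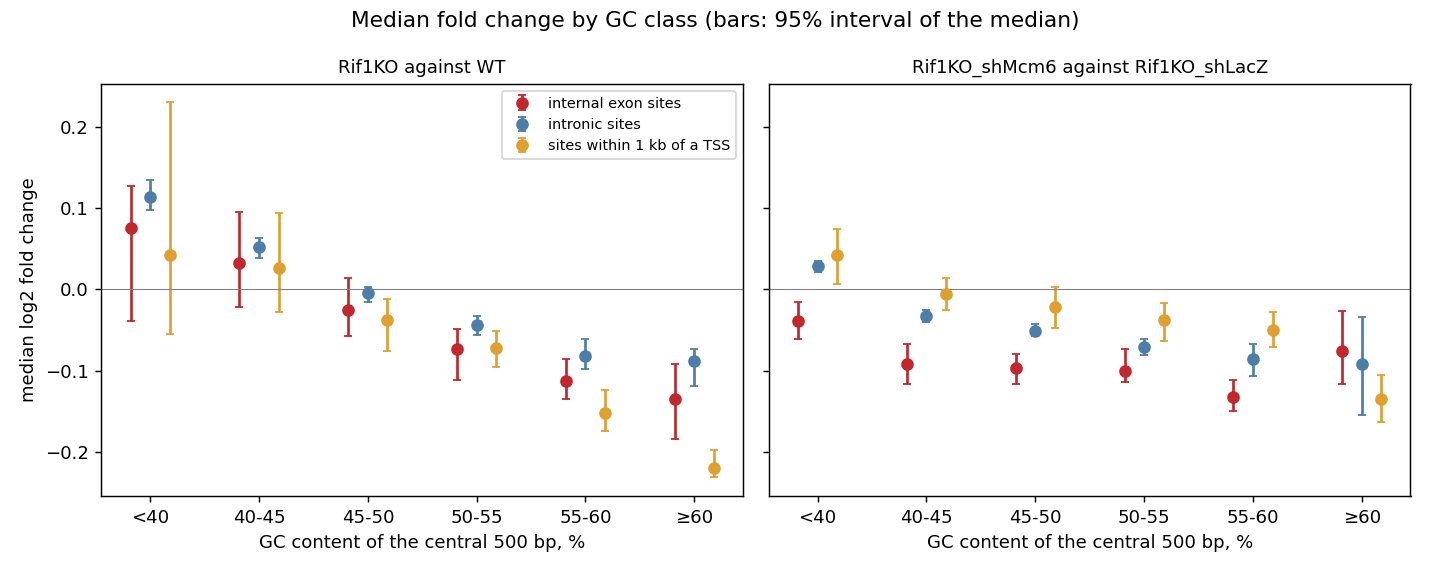
Median log2 fold change (vertical axis, bars 95% interval of the median) in 6 classes of GC content of the central 500 bp (horizontal axis, %) for internal exon ISs (red), intronic ISs (blue) and ISs within 1 kb of a TSS (orange). Medians fall with GC in the left panel, to -0.14 for internal exon ISs at 60% or more, and in the right panel internal exon ISs lie below introns in the 5 classes under 60%.

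Distance from a TSS and density were set beside the fold change in the same way. In the WT and Rif1KO table members from 1 to 2 kb of a TSS had a median of -0.073, those from 2 to 5 kb -0.100 (-0.14 to -0.058) and those beyond 50 kb -0.019 (-0.065 to 0.037), with -0.055, -0.045 and 0.043 for introns. Under the hairpin members had no such order, with -0.046 (-0.091 to 0.014) from 1 to 2 kb, -0.093 from 2 to 5 kb and -0.076 beyond 50 kb, beside -0.045, -0.056 and 0.003 for introns. With members split into 4 equal classes of density, the hairpin medians went from -0.064 in the sparsest class to -0.13 in the densest, and those of introns in the same density ranges from 0.012 to -0.074. In the WT and Rif1KO table the sparsest and densest classes had -0.080 (-0.11 to -0.042) and -0.054 (-0.081 to -0.039), whose intervals overlap, with introns at 0.002 and -0.008. Medians of members lay below those of introns in each of these strata, by less than 0.01 from 1 to 2 kb under the hairpin.

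Within genes the contrast of exon and intron was smaller. In the 574 genes with both kinds of IS the median over genes of exon minus intron fold change was 0.004 in Rif1KO against WT (95% interval -0.017 to 0.026), with 285 genes (49.7%) below 0, so no difference was detectable there. Intronic ISs of genes that hold a member had themselves a median of -0.027. The 2027 genes of the hairpin table gave -0.032 (-0.046 to -0.017), with 1107 (54.6%) below 0. The difference between all members and all introns in Rif1KO cells was thus not seen within genes.

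How much of an IS was exonic did not set the fold change in one direction. In Rif1KO against WT, members at least 50% exonic had a median of -0.089 (283 ISs, -0.12 to -0.063) and those under 50% had -0.058 (881 ISs, -0.077 to -0.047). The order turned under the Mcm6 hairpin, with -0.060 (755 ISs, -0.091 to -0.043) against -0.097 (3130 ISs, -0.11 to -0.087), and wholly exonic members were at -0.022 (380 ISs, -0.059 to 0.016). Members over first exons had -0.012 and -0.078, over inner exons -0.070 and -0.10, and over last exons -0.075 and -0.056. Members with coding sequence had -0.072 and -0.097, and members with a UTR but no coding sequence -0.042 and -0.047. Members with and without the G-run motif had -0.073 and -0.061 in the first table and -0.10 and -0.081 in the second.

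The median was below 0 on 13 of 16 autosomes in Rif1KO against WT, with a range of -0.12 to 0.079, and on 16 of 16 under the Mcm6 hairpin, with a range of -0.13 to -0.047. The chromosome values rest on 31 to 131 members in the first table and 119 to 385 in the second.

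Among members with a density at or above their median, the 5 lowest fold changes in Rif1KO lay between -0.86 and -0.65, and all 5 passed 1.5-fold. The IS over exon 3 of Fam129c (now Niban3, a gene expressed in B cells; chr8:74126577-74127225) had 5.21 log2 RPM in WT and 4.35 in Rif1KO, from 124 and 76 reads, a change of -0.86 ± 0.21 (counting standard error). This exon is the last of a retained-intron transcript, and 163 of its 180 bases are coding. Over exon 4 of Clec11a, a secreted growth factor, the IS (chr7:51560312-51560816) had 5.09 and 4.39. The IS at Card14 exon 11, from a scaffold gene of NF-kappa B signalling, had 5.52 and 4.87 but only 4 exon bases. Each of these named ISs lay less than 2 standard errors beyond 1.5-fold.

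The 5 highest of these denser members did not pass 1.5-fold. The IS at Gpatch8 exon 5 had 4.94 in WT and 5.40 in Rif1KO (0.46 ± 0.18), and that at Dock6 exon 19, from a gene for an activator of RAC1 and CDC42, had 4.81 and 5.24. The ISs at Cacnb4 exon 10, Rtp3 exon 3 and Cndp2 exon 7 had changes of 0.40, 0.39 and 0.39. The densest members in WT were those of Sp110 exon 4 (8.73 in WT, 8.57 in Rif1KO), Sfi1 exon 19 (7.85 and 7.71), Gltscr1 exon 7 (7.55 and 7.55), Raph1 exon 16 (7.35 and 7.30) and Rere exon 12 (7.24 and 7.26). Per kb in WT Sp110, whose IS is 2539 bp wide, had 167 RPM and Sfi1 260. Gltscr1 (now Bicra) codes for a subunit of a SWI/SNF remodeller and Rere for a nuclear receptor co-repressor, and their ISs had 63.8% and 64.6% GC. No input library was used, so extra copies of a sequence and more frequent initiation cannot be told apart at such ISs.

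Under the Mcm6 hairpin the lowest of the denser members was the IS at Pigq exon 5 (chr17:26069162-26069961), from a gene of GPI anchor synthesis, with 3.97 in Rif1KO_shLacZ and 3.07 in Rif1KO_shMcm6, from 331 and 198 reads (-0.91 ± 0.13), although only 15 of its bases are exonic. Next came Ntn1 exon 3, from an axon guidance gene, with 3.42 and 2.63 (-0.79 ± 0.15). The ISs at Slc22a7 exon 7 (3.74 and 3.02, an organic anion transporter gene), Ddost exon 6 (4.24 and 3.54, oligosaccharyltransferase) and Grin2c exon 12 (3.45 and 2.77, an NMDA receptor subunit) also passed 1.5-fold. The GC content of these 5 ISs was between 55.6% and 59.0%.

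Upward changes of the denser members were larger there. The IS at Ccdc158 exon 12 (chr5:93078122-93078835) had 2.67 in Rif1KO_shLacZ and 4.06 in Rif1KO_shMcm6, from 134 and 394 reads (1.39 ± 0.14), and that at Irx4 exon 4 (chr13:73403438-73404158), from a homeobox gene of the heart ventricle, had 2.65 and 4.02 (1.37 ± 0.15). Cacna1b exon 36, from a neuronal calcium channel gene, had 3.36 and 4.48 (1.11 ± 0.12), Dsg1b exon 3, a desmoglein gene, had 2.66 and 3.68 (1.02 ± 0.15), and Cpe exon 7, the carboxypeptidase E gene, had 3.12 and 4.10 (0.98 ± 0.13). All 5 lay more than 2 standard errors beyond 1.5-fold. The densest members in Rif1KO_shLacZ were at Sfi1 exon 20 (6.37, and 6.35 in Rif1KO_shMcm6), Kdm6b exon 11 (6.08 and 5.88), Sp110 exon 4 (5.81 and 5.45), Gltscr1 exon 7 (5.78 and 5.46) and Rere exon 12 (5.49 and 5.43). Kdm6b codes for a histone demethylase, and 2048 of the 2393 bases of its IS are coding. This rank is by reads over the whole IS. Per kb Kdm6b had 28.3 RPM in Rif1KO_shLacZ, below Sp110 (43.7), Gltscr1 (40.8) and Rere (38.8).

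**Figure D5:**
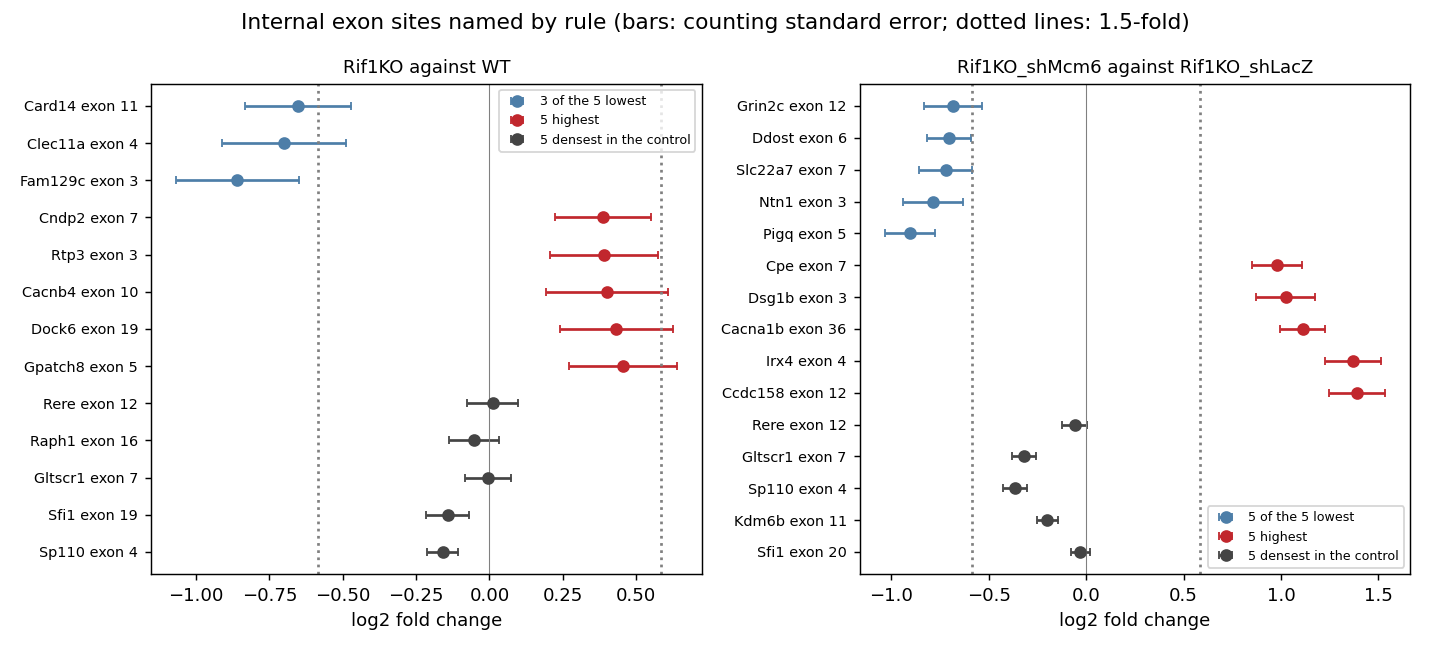
Log2 fold change (horizontal axis, bars counting standard error) of ISs among the 5 lowest (blue; 3 drawn for Rif1KO, 5 for the hairpin) and the 5 highest (red) of the denser internal exon ISs and of the 5 densest ISs in the control group (dark grey), with dotted lines at 1.5-fold. In Rif1KO the lowest reach -0.86 at Fam129c and the highest 0.46 at Gpatch8, and under the Mcm6 hairpin the range is -0.91 at Pigq to 1.39 at Ccdc158.

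A few genes held several members. In the WT and Rif1KO table Dock6 had 5, and Hydin, a gene of motile cilia, and Myh14, a non-muscle myosin gene, had 4 each. The Dock6 members disagreed with one another: exon 41 had 5.47 in WT and 5.69 in Rif1KO, exon 28 had 4.76 and 3.83, exon 24 had 4.21 and 4.13, exon 19 had 4.81 and 5.24, and exon 8 had 4.52 and 4.17. That of exon 28 (chr9:21625717-21626198; -0.93 ± 0.25, from 91 and 53 reads) had the lowest fold change of all 1164 members. Of the 16 genes with 3 members, Atp2b4 (a plasma membrane calcium pump) comes first in the alphabet, and its members lay between -0.40 and 0.032.

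Under the Mcm6 hairpin Ryr1, the calcium release channel of skeletal muscle, had 10 members over 121.8 kb, Hydin 8 over 343.3 kb and Cit, the citron kinase gene, 7 over 163.7 kb. Those of Ryr1 had changes between -0.34 and 0.35 with a median of -0.048, and none passed 1.5-fold. All 8 of Hydin were below 0, from -0.095 to -0.70, and the lowest, over exon 47, had 2.25 in Rif1KO_shLacZ and 1.55 in Rif1KO_shMcm6. Those of Cit lay between -0.20 and 0.12. Of the 7 genes with 6 members, Dock10 and Dock6 come first, with ranges of -0.44 to 0.072 and -0.56 to 0.34. At Dock6 exon 28 the change was -0.56 ± 0.18, just inside 1.5-fold, from 2.90 to 2.33.

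Gene lists held too few members to read a count of calls against the 2.23% lower and 0.344% higher of all members in Rif1KO, or the 2.42% and 2.34% under the Mcm6 hairpin, so their values are given as a description. Of 25 B cell genes, 4 held a member in the WT and Rif1KO table, all below 0, beside 64.3% of all members. They include Bach2, a repressor of plasma cell fate (4.21 in WT, 3.94 in Rif1KO), Cd22, an inhibitory receptor (5.05 and 4.82), and Ebf1, a B lineage factor (4.84 and 4.75). None of these 4 passed 1.5-fold, nor did any of the 12 members in 10 B cell genes of the hairpin table, which ranged from -0.50 at Bach2 exon 6 to 0.29 at Ebf1 exon 11. Of these 12, 8 were below 0, beside 63.8% of all members of that table. Of 26 genes of replication initiation, 3 and 6 held members, 3 and 8 in number, with no call. They include an IS over exon 7 of Rif1 itself, which had 4.91 in WT and 4.92 in Rif1KO, and one over exon 11 of Pold1, a DNA polymerase subunit, with 5.86 and 5.55 in the first table and 4.27 and 4.13 in the second.

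Chromatin regulators held more. Of 28 genes, 13 had a member in each table, 17 and 24 in all, and none of the members passed 1.5-fold. Their medians were -0.18 and -0.18, beside -0.070 and -0.093 over all members. Below 0 were 13 of 17 and 16 of 24, beside 64.3% and 63.8% of all members. Among them, the IS over exon 3 of Mll1 (now Kmt2a), a histone methyltransferase gene, had 4.34 in WT and 3.80 in Rif1KO. Median GC was 59.6% and 56.2% in this list, above the 53.8% and 50.9% of all members, and its part in the lower medians was not tested.

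Giant cytoskeletal and muscle genes had 8 members in 4 of 19 genes in the first table, with no call and a median of 0.022. The hairpin table held 31 such members in 10 genes, with a median of -0.032, where Spnb2 exon 25 (a spectrin, 2.58 to 3.32) was higher and Ahnak2 exon 2 (3.75 to 3.13) was lower. Collagen genes, with many short exons, had 12 members in 11 of 33 genes with a median of 0.071 and no call. Of the collagen genes of the hairpin table, 19 held 37 members, which had a median of 0.049, with Col1a2 exon 5 (1.51 to 2.44), Col19a1 exon 6 (3.07 to 3.91) and Col11a2 exon 60 (1.60 to 2.33) higher and Col24a1 exon 7 (2.06 to 1.46) lower. Medians of collagens were thus above 0 in both tables while those of all members were below it, which was not tested.

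Genes named Zfp, for zinc finger proteins, had 15 members with a median of -0.015 and 1 lower, Zfp575 exon 4 (5.33 to 4.72), and under the Mcm6 hairpin 43 members with a median of 0.012, where Zfp791 exon 3 (2.19 to 2.90) was higher and Zfp236 exon 9 (2.55 to 1.93) was lower. Of 371 Zfp genes, 13 and 38 held a member. Cadherin genes had 2 members without a call and 10 with a median of -0.13, of which Cdh5 exon 2 (2.68 to 3.29) was higher. Axonemal dynein heavy chain genes had 7 and 27 members with medians of -0.057 and -0.13 and no call.

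Members of both tables overlapped in part. Of 1164 members of the first table, 965 (82.9%) overlapped an IS of the hairpin table, and of 3885 members of the hairpin table, 1253 (32.3%) overlapped an IS of the first. The shares over intronic ISs were 82.6% and 24.7%, and over all ISs 84.0% and 23.9%, so the first share is that of ISs in general and the second is higher. By the 4 lists of ISs per group, 569 (48.9%) members of the first table lay over an IS of every group, beside 40.7% of intronic ISs, and 2632 (67.7%) members of the hairpin table lay over ISs of the hairpin groups alone, beside 75.3%. The hairpin libraries had 21071351 and 23602750 reads in ISs, against 3350255 in WT and 3724571 in Rif1KO, and the part of depth in this was not tested.

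Members that also overlapped an IS of the first table were lower under the Mcm6 hairpin than the rest. The 1253 had a median of -0.15 (-0.16 to -0.14), with 3 (0.239%) higher and 30 (2.39%) lower, and the other 2632 had -0.050 (-0.062 to -0.038), with 88 (3.34%) higher and 64 (2.43%) lower. Intronic ISs split in the same way had medians of -0.099 (7649 ISs) and 0.001 (23376 ISs), so members lay below introns on both sides. Of the introns that overlapped, 0.967% were higher and 1.19% lower, and of the rest 5.36% and 1.66%, so fewer higher calls among overlapping ISs were common to both kinds. The overlapping members were also denser, with a median of 3.58 log2 RPM in Rif1KO_shLacZ against 2.75.

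At 892 pairs of members that matched one to one, WT and Rif1KO_shLacZ densities had a Pearson r of 0.72 and a Spearman rho of 0.67, while the fold changes of the 2 contrasts had an r of 0.049 and a rho of 0.035, given as descriptions of ISs that share sequence but no libraries. The medians at these pairs were -0.068 in Rif1KO against WT and -0.17 under the Mcm6 hairpin. Of the pairs, 21 were lower in Rif1KO and 25 were lower in Rif1KO_shMcm6, and 2 were lower in both. These were Rhoh exon 2, from a GTPase gene of blood cells, with 4.39 in WT, 3.69 in Rif1KO, 3.74 in Rif1KO_shLacZ and 3.06 in Rif1KO_shMcm6, and Clec11a exon 4, with 5.09, 4.39, 3.59 and 2.95. Both were chosen after their values were seen.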

How the data were processed

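SNS-seq libraries of 4 groups, 2 each, were deposited as 4 lists of ISs and 2 merged tables. The authors trimmed reads with Trim Galore 0.6.4 (cutadapt 2.6), aligned them with Bowtie 1.2.3 to mm9 keeping unique alignments, called peaks per replicate with MACS without input, and kept consensus peaks inside clusters. Unique alignment drops repeats, and no input correction leaves DNA copy number in the values. The deposited values are log2 RPM per IS and group with both replicates pooled by the authors, and each column sums to 1000000 RPM, so it is relative to the reads inside ISs of its table. Other deposited columns hold the number of merged peaks, used in no comparison, and the authors' category of fold change, not used here.

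Every value (100%) was a whole multiple of 1 read within 0.05, so reads per IS were recovered. Median reads per member were 89 in WT, 94 in Rif1KO, 172 in Rif1KO_shLacZ and 186 in Rif1KO_shMcm6, and the standard errors of single ISs cover counting error only, since reads can be PCR copies. With 1 pooled value per group no test across replicates was possible. Shares have 95% Wilson intervals and medians 95% order-statistic intervals, both reflecting the number and spread of ISs, treated as independent, and not the spread between libraries. Context came from GENCODE M1 and sequence from NCBIM37, which is mm9, and current symbols in brackets from the RefSeq gene table. Autosomes 10, 15 and 16 were left out by the rule. Coordinates are 1-based. Named ISs are the 5 highest and 5 lowest fold changes among members at or above the median density, the 5 densest in the control, the members of the 5 genes with most members (ties by alphabet) and members in gene lists, and some of these items are not reported here. The rule, the members and the lists were chosen with earlier results of these data known. Computation used Python 3.11.15 with numpy 2.4.6, pandas 2.3.3 and scipy 1.17.1, and the steps were tested on simulated data.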

Additional observations from a re-analysis of the deposited data

How the results depend on the processing

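No paired analysis was possible because both libraries of a group had been pooled into a single value, and for the same reason leaving out a replicate, a replicate block, edgeR and DESeq2 were not run. Alternatives covered 6 quantities per table, and in 57 of 100 cases the value stayed inside the interval of the main value or, for a number of members, within 1.5 times of it. All 20 medians of fold change were below 0, and no gap to introns changed sign, but under the Mcm6 hairpin the balance of higher and lower members turned in 6 of 11 alternatives. The cause of the moves was not tested, beyond what a threshold or a smaller set gives by construction.

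Shares are given here as higher, then lower. Shares over all ISs were computed at 1.5-fold only, for the 16 autosomes together and for chromosomes 10, 15 and 16 singly. Whether a move is particular to the members was thus not tested. In Rif1KO against WT (0.344% and 2.23%) they were 0% and 0% at 2-fold, 4.38% and 14.2% at a log2 threshold of 0.32, and 0% and 0.391% at ISs called in both conditions. On the log2(RPM + 1) scale 0.0859% were higher, and with the centre in an exon 3.46% were lower. With all autosomes, 10, 15 and 16 included, they were 0.840% and 5.11%, where 22.2% of all ISs of chromosome 10 were lower. Under the Mcm6 hairpin (2.34% and 2.42%) they were 0.309% and 0.0772% at 2-fold, 8.78% and 16.1% at 0.32, 1.34% and 0.952% on the log2(RPM + 1) scale, and 0.760% and 1.30% at ISs called in both. The lower-quartile filter gave 1.92% and 1.62%, centring 2.42% and 2.29%, members beyond 2 kb 2.45% and 2.12%, and all autosomes 2.47% and 2.45%, so that higher exceeded lower there, at 2-fold and on the log2(RPM + 1) scale. With the centre in an exon they were 1.79% and 2.28%.

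Median fold changes moved to -0.086 (centred on the median of the table) and -0.089 (at least 50% exonic) in Rif1KO, and to -0.11 (called in both) and -0.060 (at least 50% exonic) under the hairpin. Members numbered 283 and 755 when at least 50% exonic and 376 and 1228 with the centre in an exon.

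The gap in density to introns (0.29 and 0.28 log2) was 0.21 and 0.19 with the lower-quartile filter, 0.23 and 0.24 at ISs called in both, and 0.19 and 0.24 against introns of the same genes, an alternative chosen after seeing the data. In the hairpin table it was 0.040 when at least 50% exonic and 0.15 with the centre in an exon. The gap in GC (6.24 and 5.61 percentage points) was 8.16 and 8.40 when at least 50% exonic, 6.93 and 7.16 with the centre in an exon, and 4.82 and 4.96 against introns of the same genes. In the hairpin table it was 5.89 with coding sequence and 5.05 beyond 2 kb. At the median depth of 89 reads a single member has a counting error near 0.21 log2, so most single changes were not detectable.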

Other observations

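Exonic ISs on the 3 autosomes left out by the rule had other values in Rif1KO against WT. On chromosome 10, 123 ISs that met the other conditions had a median of -0.49 log2 (5.05 in WT, 4.56 in Rif1KO), with 46 (37.4%) lower and 0 higher by 1.5-fold, beside 22.2% lower and a median of -0.36 over all 2699 ISs of that chromosome. On chromosome 15 the 86 ISs had a median of 0.095, with 4 (4.65%) higher and 1 lower, beside 9.75% higher and 0.16 over all 2667 ISs. On chromosome 16 the 55 had 0.29, with 4 (7.27%) higher and 0 lower, beside 14.4% higher and 0.33 over all 2174 ISs. The median of the exonic ISs lay below that of all ISs on each of these chromosomes, and positions along them were not compared. Under the Mcm6 hairpin the medians of these chromosomes were -0.11 (272 ISs), -0.040 (288 ISs) and -0.099 (133 ISs), within the range of the other autosomes except on chromosome 15. No input library was used, so copy number and use of the ISs cannot be told apart.

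Members called in 1 condition only had medians in the direction of that call. In the first table the 176 called in WT alone had a median of -0.27 and the 220 called in Rif1KO alone 0.10. In the hairpin table the 448 called in Rif1KO_shLacZ alone had -0.26 and the 675 called in Rif1KO_shMcm6 alone 0.17. Against that direction, 34.5% of those called in Rif1KO alone and 29.9% of those called in Rif1KO_shMcm6 alone were below 0. The calls and the densities come from the same reads.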
